A study of Mus musculus with 4 samples.

Results

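Desmosome genes encode the proteins of the spot junctions that rivet epithelial cells to each other, and 10 of them were followed here among the 22913 genes measured in dermal white adipose tissue (dWAT), the fat layer around the lower ends of hair follicles (HFs). They were taken by symbol: the desmogleins Dsg2, Dsg3 and Dsg4, the desmocollins Dsc1, Dsc2 and Dsc3, desmoplakin (Dsp), plakoglobin (Jup) and the plakophilins Pkp1 and Pkp3. The rule that lists them uses no measured value, though it was drawn up with earlier results of these data known, and all 10 had a value above 0 in each library.

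RNA sequencing compared the dWAT of C57BL/6 mice across age and hair cycle phase, with 4 libraries in all. OTD came from old mice of 18 months and YTD from young mice of 2 months, both in telogen, the resting phase of the HF. OAD and YAD came from old and young mice of the same ages in anagen, the growth phase, which was brought on by plucking the hair (depilation). For YTD and OAD one field of the sample labels gives the other age (18 and 2 months), and the titles and the design text were followed. Anagen and plucking always came together, so they cannot be told apart in these data. The tissue was isolated by microdissection as a whole layer that was not sorted by cell type. The protocol was to remove neighbouring skin muscle and deeper fat, but muscle transcripts were still present in each library, as given below. Each group is 1 library, so no difference below has a replicate error, a test or a p-value.

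In a desmosome, desmogleins and desmocollins reach across the gap between neighbouring cells as calcium-dependent cadherins. Inside the cell, plakoglobin and the plakophilins, which belong to the armadillo proteins, bind the cadherin tails, and desmoplakin ties this plaque to the keratin filaments. In skin the set of cadherins changes with the layer: Dsg3 and Dsc3 belong to the basal epidermis and the outer root sheath, Dsc1 to more differentiated layers, and Dsg4 to the hair shaft, whereas Dsg2 and Dsc2 are widespread in epithelia.

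Both the labelled tissue and other tissues were found in the libraries. All 10 adipocyte markers read at least 1 FPKM (fragments per kilobase of the gene's listed length, scaled to the depth of the library) in each library, and their summed level was 7669 FPKM in OTD and 6285 in YTD, and 2664 in OAD and 1853 in YAD. The 10 epithelial markers summed to 86.1 FPKM in OTD and 129 in YTD, and 2797 in OAD and 2127 in YAD. The 8 melanocyte markers summed to 12.5 FPKM in OTD and 14.7 in YTD, and 457 in OAD and 756 in YAD, whereas the fibroblast markers summed to 1564 and 1123 in telogen and to 205 and 417 in anagen. For 12 skeletal muscle genes the sums were 68347, 107010, 16283 and 12207 FPKM in the same order. Mitochondrially encoded genes took 52.7% of all FPKM in OTD and 44.7% in YTD, and 18.3% in OAD and 14.4% in YAD. Depth, estimated roughly from the lowest values, was 20000000 to 23400000 fragments per library.

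The 10 genes together were far higher in anagen than in telogen at both ages. Their summed level was 71.6 FPKM in YTD and 1163 in YAD, and 46.5 FPKM in OTD and 1322 in OAD. Changes are given as differences of log2(FPKM + 1), a scale on which lowly expressed genes show smaller changes than their plain ratios, and a difference of at least 1 in size counts as past the threshold. In young dWAT 10 of 10 desmosome genes were higher in anagen past the threshold, against 16.1% of the 17622 genes with a value in either library, and 0 were lower, against 16.7%. Their median difference was 4.06, from 2.12 for Dsg3 to 4.95 for Pkp3, beside 0.02 over all genes. In old dWAT 10 of 10 were again higher past the threshold, against 16.1% of 17712 genes, and 0 were lower, against 15.6%, with a median of 5.03 beside 0.01. The lowest of these differences was 2.91 for Dsg2 and the highest 5.94 for Dsp. Since whole tissue was sequenced, more epithelial cells and more of these transcripts per cell cannot be told apart, here or in any comparison below. The summed epithelial, hair shaft keratin, muscle and adipocyte levels differ between the same libraries, and their part in the result was not tested.

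**Figure D1:**
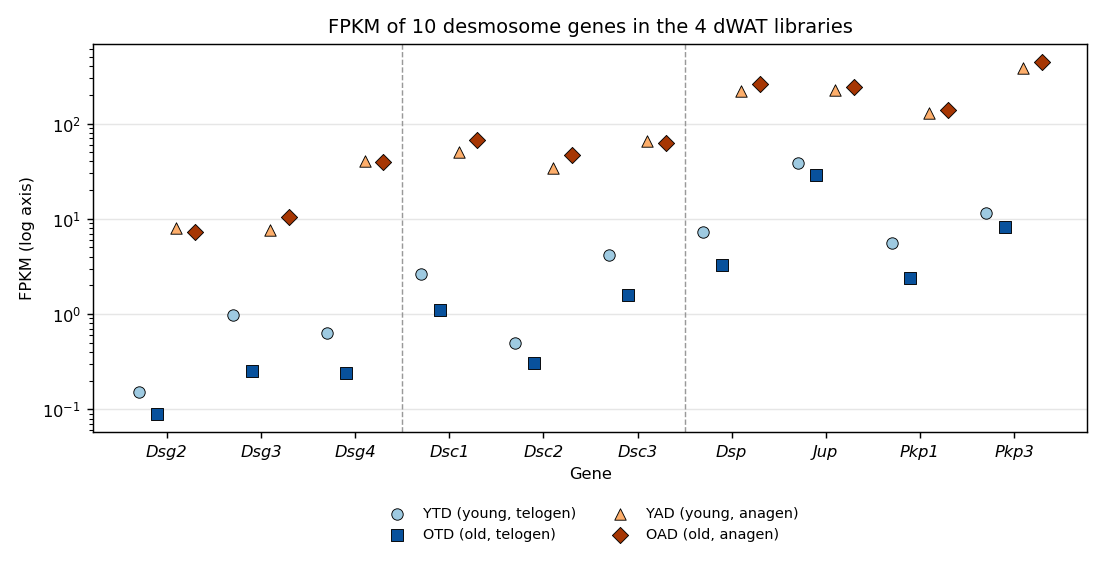
FPKM of the 10 desmosome genes (log axis) in the 4 libraries, 1 point per library, with desmogleins on the left, desmocollins in the middle and plaque genes on the right. For each gene both anagen points lie above both telogen points, and OTD lies below YTD throughout.

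Of Dsg2, Dsg3 and Dsg4, Dsg4 had the highest anagen level. Dsg4 (ENSMUSG00000001804), the desmoglein of the hair shaft cortex whose loss gives fragile, lance-shaped hair, read 0.240 FPKM in OTD and 0.634 in YTD, and 39.6 in OAD and 40.3 in YAD. It was thus low in both telogen libraries and at nearly the same level in both anagen libraries. The fold of anagen over telogen was 63.5 in young dWAT (95% counting interval 46.1 to 88.3) and 165 in old dWAT (102 to 290). These intervals are exact binomial intervals on the estimated fragments, so they are approximate and cover counting error only, not differences between mice or dissections.

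Dsg3 (ENSMUSG00000056632), the cadherin of basal keratinocytes and the main target of antibodies in pemphigus vulgaris, read 0.249 FPKM in OTD and 0.989 in YTD, and 10.5 in OAD and 7.66 in YAD. Its log2 difference in young dWAT, 2.12, was the lowest of the 10 genes, with a fold of 7.75 (5.91 to 10.3). In old dWAT the difference was 3.20 and the fold 42.0 (25.6 to 73.5). The OTD value rests on an estimated 16 fragments, against 59 in YTD, so the old fold has the wider interval.

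Dsg2 (ENSMUSG00000044393), the desmoglein of simple epithelia and heart, read 0.0885 FPKM in OTD and 0.153 in YTD, and 7.18 in OAD and 7.96 in YAD. It was the lowest of the 10 in OTD, YTD and OAD, and in YAD it stood next to Dsg3, with 586 estimated fragments for Dsg2 and 499 for Dsg3. Its telogen values rest on an estimated 6 fragments in OTD and 10 in YTD. The fold of anagen over telogen was 51.9 in young dWAT (29.0 to 113) and 81.2 in old dWAT (39.3 to 236). An antisense transcript, Gm16090, overlaps the end of Dsg2 in the annotation, and since the strandedness of the reads is not stated, its reads cannot be told from those of Dsg2.

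Over the whole desmoglein family the make-up differed between phases. Dsg1a took 57.4% of the family's summed FPKM in YTD and 45.6% in YAD, and 72.9% in OTD and 47.8% in OAD. Dsg1a, Dsg1b and Dsg1c are near-identical copies, so how reads were split between them is uncertain. The share of Dsg4 was 11.5% in YTD and 34.2% in YAD, and 9.92% in OTD and 31.4% in OAD. Dsg3 went the other way, at 17.9% of the family in YTD against 6.51% in YAD, and 10.3% in OTD against 8.31% in OAD. The OTD share of Dsg3 rests on an estimated 16 fragments, so its small difference in old dWAT is uncertain. A share within 1 library does not depend on how libraries are scaled to each other.

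The desmocollins were each higher than the desmogleins Dsg2 and Dsg3 in anagen. Dsc1 (ENSMUSG00000044322), the desmocollin of differentiated layers, read 1.09 FPKM in OTD and 2.64 in YTD, and 67.0 in OAD and 50.2 in YAD. Its fold of anagen over telogen was 19.0 in young dWAT (16.0 to 22.8) and 61.4 in old dWAT (47.6 to 81.4). Of 6 keratins of the suprabasal epidermis, Krt1 read at most 0.126 FPKM in any library, Krt2 at most 2.98 and Krt10 at most 3.78. Krt80, of the same list, read 1.63 FPKM in OTD and 3.03 in YTD, and 98.3 in OAD and 64.6 in YAD, levels of the same range as those of Dsc1.

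Dsc2 (ENSMUSG00000024331), the desmocollin found most widely, read 0.309 FPKM in OTD and 0.491 in YTD, and 46.5 in OAD and 34.0 in YAD. In young dWAT this is a fold of 69.3 (46.8 to 104), the highest of the 10 genes by plain ratio, with an interval that overlaps that of Dsg4. In old dWAT the fold was 151 (94.5 to 253). The telogen values rest on an estimated 18 and 27 fragments.

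Dsc3 (ENSMUSG00000059898), the desmocollin of basal cells and the outer root sheath, read 1.58 FPKM in OTD and 4.20 in YTD, and 62.2 in OAD and 65.4 in YAD. Its fold was 15.6 in young dWAT (13.6 to 17.9) and 39.4 in old dWAT (31.9 to 48.9). Dsc3 led the family in telogen, with 57.3% of its summed FPKM in YTD and 53.0% in OTD. In YAD its share was 43.7% and in OAD 35.4%, just below the 38.1% of Dsc1. The share of Dsc2 was 6.70% in YTD and 22.8% in YAD, and 10.4% in OTD and 26.5% in OAD, whereas that of Dsc1 stayed between 33.5% and 38.1% in the 4 libraries.

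The 6 cadherin genes are neighbours on chromosome 18 of GRCm38, in a cluster of 644 kb that holds the desmocollins on the minus strand and the desmogleins on the plus strand. In order they are Dsc3 (chr18:19960930-20002097), Dsc2 (chr18:20030633-20059554), Dsc1 (chr18:20084703-20114773), the Dsg1 copies, Dsg4 (chr18:20436175-20471821), Dsg3 (chr18:20510304-20541310) and Dsg2 (chr18:20558074-20604521). Within the cluster Dsg1c, the copy nearest to the desmocollins, was listed at 0 in both telogen libraries and at no more than 0.453 FPKM in anagen. The nearest genes with values on either side, outside the cluster, were lower or near 0 in anagen. Cdh2, N-cadherin, read 2.31 FPKM in OTD and 1.64 in YTD, and 0.497 in OAD and 0.514 in YAD, lower in anagen than in telogen at both ages. Ttr, transthyretin, was listed at 0 in telogen and read at most 0.088 FPKM in anagen. Of the cluster's 9 genes 8 were thus higher in anagen past the threshold at both ages, the exception being Dsg1c.

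**Figure D2:**
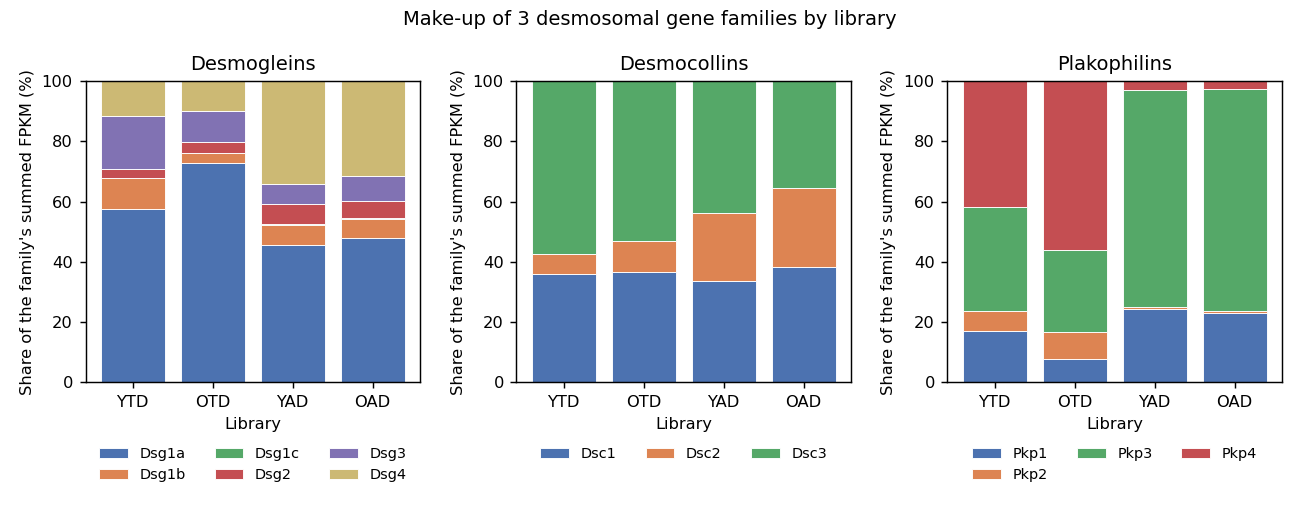
Share (%) of each gene in the summed FPKM of its family, as stacked bars for the 4 libraries: desmogleins, desmocollins and plakophilins. Dsg4, Dsc2 and Pkp3 take larger shares in YAD and OAD than in YTD and OTD, and Pkp4 and Dsc3 smaller ones.

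The plaque genes lie elsewhere, each on its own chromosome, and were the most abundant of the 10 in each library. Dsp (ENSMUSG00000054889; chr13:38151328-38198577), the link to the keratin filaments, read 3.28 FPKM in OTD and 7.33 in YTD, and 261 in OAD and 218 in YAD. Its fold of anagen over telogen was 29.8 in young dWAT (28.2 to 31.5) and 79.6 in old dWAT (73.5 to 86.4). With a log2 difference of 5.94 it stood highest of the 10 genes in old dWAT, and second to Pkp3 in young dWAT at 4.72. An unclassified transcript on the opposite strand, Gm10129, overlaps its start.

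Jup (ENSMUSG00000001552; chr11:100370619-100397749, minus strand), which serves in adherens junctions as well as desmosomes, read 29.0 FPKM in OTD and 38.2 in YTD, and 241 in OAD and 225 in YAD. It was the highest of the 10 in both telogen libraries. Its fold of anagen over telogen, 5.90 in young dWAT (5.61 to 6.22) and 8.31 in old dWAT (7.86 to 8.79), was the lowest of the 10 at both ages by plain ratio. Jup made up 53.3% of the summed FPKM of the 10 genes in YTD and 62.4% in OTD, but 19.4% in YAD and 18.2% in OAD.

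Pkp3 (ENSMUSG00000054065; chr7:141078218-141090510), the plakophilin found in most layers of stratified epithelia, read 8.27 FPKM in OTD and 11.4 in YTD, and 447 in OAD and 384 in YAD. It took the place of Jup as the highest of the 10 in anagen, with 33.0% of their sum in YAD and 33.8% in OAD against 15.9% in YTD and 17.8% in OTD. The fold was 33.6 in young dWAT (30.9 to 36.6) and 54.1 in old dWAT (49.2 to 59.6). Pkp1 (ENSMUSG00000026413; chr1:135871395-135919207, minus strand), the plakophilin of differentiated epidermal layers, read 2.37 FPKM in OTD and 5.60 in YTD, and 139 in OAD and 130.3 in YAD. Its folds were 23.3 (20.5 to 26.5) in young and 58.8 (48.6 to 71.3) in old dWAT. Gm36938, an unclassified transcript on the same strand, lies within Pkp1, so its reads could have been counted with Pkp1.

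The other plakophilins did not pass the threshold between phases. Pkp2, of simple epithelia and heart, read 2.77 FPKM in OTD and 2.11 in YTD, and 4.05 in OAD and 3.68 in YAD. Pkp4, found at many cell contacts outside desmosomes too, read 17.1, 13.6, 16.1 and 16.5 FPKM in the same order. Pkp4 thus took 41.6% of the plakophilin sum in YTD and 56.1% in OTD, but 3.10% in YAD and 2.65% in OAD, where Pkp3 took 71.8% and 73.7%. The anagen plakophilins were largely Pkp3 and Pkp1.

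**Figure D3:**
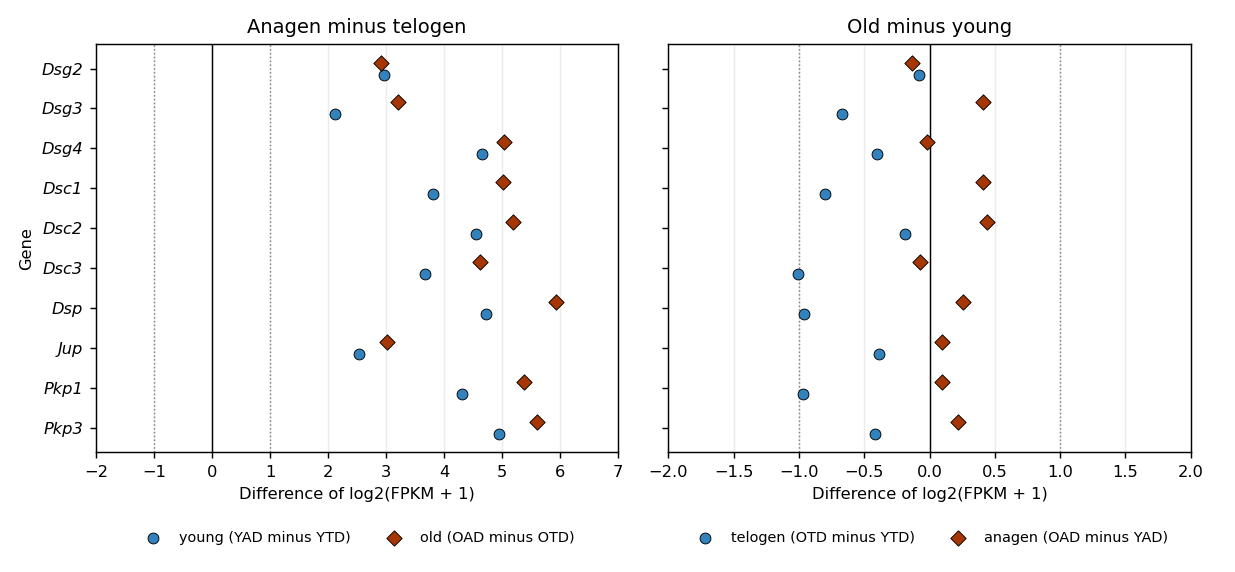
Difference of log2(FPKM + 1) for each desmosome gene, anagen minus telogen (left) and old minus young (right), 1 point per comparison, with dotted lines at the threshold of 1. All anagen minus telogen points lie above 2, whereas old minus young lies below 0 for each gene in telogen and on both sides of 0 in anagen.

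The RefSeq promoter table held 2 of the 4 plaque genes, and their promoters are shown because these genes were higher together in anagen. Each line reads 5′ to 3′ on the strand of the gene and gives only bases that lie before any annotated transcript of the gene. For Jup this is chr11:100397840-100398040 on the minus strand, and for Dsp chr13:38151044-38151293 on the plus strand, both in GRCm38.p6. Capitals mark CCAAT and GGGCGG, the latter also as its reverse complement.
Jup promoter: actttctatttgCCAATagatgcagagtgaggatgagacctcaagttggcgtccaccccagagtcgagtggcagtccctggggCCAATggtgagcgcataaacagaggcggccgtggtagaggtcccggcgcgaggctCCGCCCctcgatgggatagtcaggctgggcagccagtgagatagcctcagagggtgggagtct
Dsp promoter: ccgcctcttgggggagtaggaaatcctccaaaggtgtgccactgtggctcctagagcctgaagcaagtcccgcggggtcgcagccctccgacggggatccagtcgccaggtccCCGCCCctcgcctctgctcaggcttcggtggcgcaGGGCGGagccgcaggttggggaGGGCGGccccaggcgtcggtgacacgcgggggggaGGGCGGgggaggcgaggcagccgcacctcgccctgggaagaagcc
Searched on both strands were TATAAA (bound by TBP), CCAAT (bound by NF-Y), GGGCGG (bound by Sp1), CTTTGA (core of the LEF/TCF motif), TGANTCA (AP-1) and AACCNGTT (grainyhead), over the 250 bases before the start, and no matches overlapped. Jup held 2 CCAAT matches, the first 238 to 234 and the second 167 to 163 bases before the start, and 2 GGGCGG matches, of which the one 42 to 37 bases before the start is outside the bases shown. Dsp held 4 GGGCGG matches and none of CCAAT. Of 32851 mouse promoters of the same length 33.8% held CCAAT and 32.7% held GGGCGG, so neither match is rare. TATAAA stood in 12.4% of them, CTTTGA in 13.8%, TGANTCA in 6.75% and AACCNGTT in 1.79%, and these letters were not in the window of Jup or Dsp. A match describes the letters only.

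To set the desmosome genes beside the amount of keratinocyte keratin in the same library, each was divided by the summed FPKM of Krt5 and Krt14, the keratin pair of basal epidermis and outer root sheath. That sum was 46.7 FPKM in OTD and 69.3 in YTD, and 1071 in OAD and 691 in YAD, so the keratin pair itself was 9.97 times higher in YAD than in YTD and 22.9 times higher in OAD than in OTD. Per Krt5 and Krt14, 8 of the 10 genes were higher in YAD than in YTD, and 6 of these by at least 2 times. In old dWAT 9 of the 10 were higher in anagen, 7 of them by at least 2 times.

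The genes fell apart on this relative scale. Dsc2 per Krt5 and Krt14 was 6.95 times higher in YAD than in YTD and 6.58 times higher in OAD than in OTD. For Dsg4 these ratios were 6.37 and 7.21, and for Dsg2 they were 5.21 and 3.54. Pkp3 stood at 3.37 and 2.36, Dsp at 2.99 and 3.47, and Pkp1 at 2.33 and 2.56. Dsc1 stood at 1.91 and 2.68, and Dsc3 at 1.56 and 1.72. Dsg3 was lower per Krt5 and Krt14 in YAD than in YTD, with a ratio of 0.778, but higher in OAD than in OTD, at 1.83. Jup was lower in anagen on this scale at both ages, with ratios of 0.592 in young and 0.363 in old dWAT. The direction of Jup, and of Dsg3 in young dWAT, therefore depends on whether the level itself or the level per Krt5 and Krt14 is compared.

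**Figure D4:**
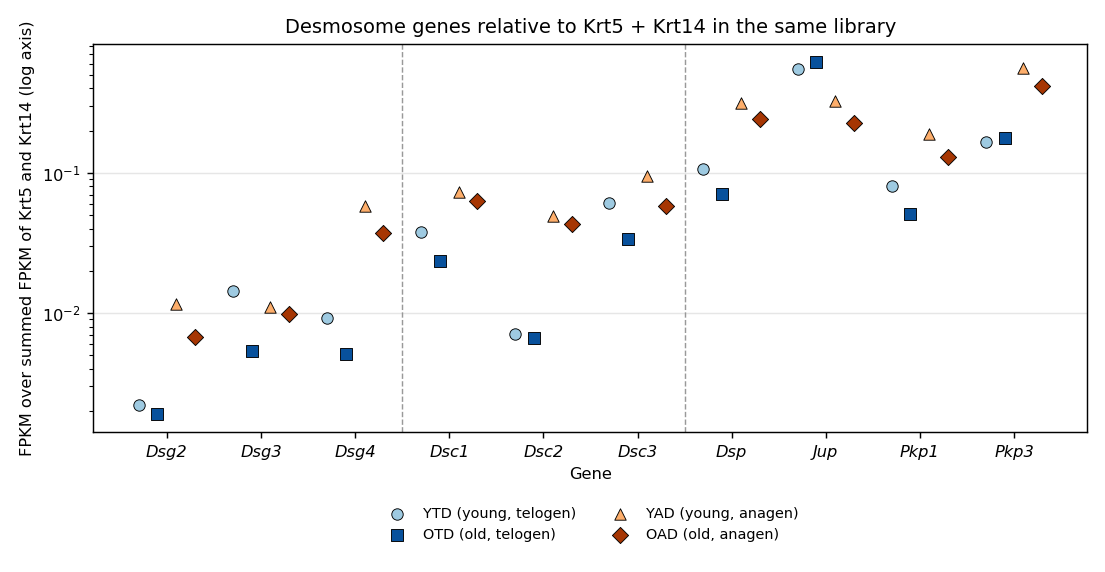
FPKM of each desmosome gene divided by the summed FPKM of Krt5 and Krt14 in the same library (log axis), 1 point per library. Dsg2, Dsg4, Dsc1, Dsc2, Dsp, Pkp1 and Pkp3 stand higher in both anagen libraries than in both telogen libraries. Jup stands lower in both anagen libraries, and OAD lies below YAD for each gene. The summed keratin pair itself was 1.55 times higher in OAD than in YAD.

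Between the ages in telogen, each desmosome gene had a lower value in OTD than in YTD. The summed level of the 10 was 46.5 FPKM in OTD against 71.6 in YTD. Past the threshold was 1 of 10, Dsc3 at -1.01, against 1.93% of 17230 genes that were lower past it. None was higher past it, against 1.67% of genes. Under each of the 5 other scalings of the libraries the count of lower genes was 0. It was 6 with a pseudocount of 0.1 or 0.01 in place of 1, where 6.17% and 9.55% of all genes were lower. At a threshold of 0.5 it was 5, against 12.4% of all genes. With a pseudocount of 1 the median difference of the 10 genes was -0.55 beside -0.03 over all genes, and 54.1% of all genes were below 0. Next to Dsc3 stood Pkp1 at -0.97, Dsp at -0.96 and Dsc1 at -0.80.

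As plain ratios of OTD over YTD the genes ran from 0.252 for Dsg3 to 0.760 for Jup. Dsg3, basal and outer root sheath, had a counting interval of 0.136 to 0.447, and Dsg4, of the hair shaft, read 0.378 times the YTD level (0.196 to 0.684). Dsc3 stood at 0.377 (0.292 to 0.483), Pkp1 at 0.423 (0.336 to 0.533) and Dsp at 0.448 (0.405 to 0.493). Dsc1 was at 0.414 (0.297 to 0.564). Pkp3 and Jup, the most abundant in telogen, were closest to the YTD level, at 0.725 (0.637 to 0.822) and 0.760 (0.708 to 0.817). For 8 of the 10 the interval lay wholly below 1, without a share over all genes, since intervals were computed for the 10 only. The exceptions were Dsg2 at 0.577 (0.168 to 1.71) and Dsc2 at 0.628 (0.324 to 1.18), where the few fragments could not show a difference at this depth.

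The other lists differed in their direction between OTD and YTD. The 12 hair shaft keratins analysed had a median of -1.09, with 7 lower past the threshold and 12 of 12 below 0. The 8 keratins of the inner root sheath, the sleeve that moulds the hair shaft, had a median of -0.54 with 8 of 8 below 0, and the 10 epithelial markers one of -0.36 with 8 of 10 below 0, none of either list past the threshold. Of the 14 transcription factors of epidermis and HF 13 were below 0, with Dlx3, Msx2 and Lef1 lower past the threshold and Klf4 higher past it at 1.47. The 8 keratins of basal epidermis and outer root sheath had 5 below 0 and 3 above, with Krt15 lower past the threshold at -1.15. Of 14 adherens junction genes 9 were above 0, with Cdh1, Cdh3 and Nectin4 among the 5 below 0 and none past the threshold. The skeletal muscle genes had a median of -0.63, with 12 of 12 below 0, while 7 of 10 adipocyte markers were above 0. So were 8 of 8 blood endothelium markers, 8 of 8 macrophage markers and 6 of 6 smooth muscle and pericyte markers, with 1, 1 and 3 higher past the threshold. Their part in the lower desmosome values was not tested. Per Krt5 and Krt14, 8 of the 10 desmosome genes were lower in OTD than in YTD, with a median ratio of 0.646, and Jup at 1.13 and Pkp3 at 1.08 were higher.

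In anagen the old and young libraries differed less. The summed level of the 10 was 1322 FPKM in OAD and 1163 in YAD, and 0 of 10 passed the threshold, against 0.727% of 17613 genes that were higher and 0.454% that were lower past it. The median was 0.16 beside 0 over all genes, with 7 genes above 0 and 3 below. Dsc2 at 0.44, Dsc1 at 0.41 and Dsg3 at 0.41 stood highest, with ratios of OAD over YAD of 1.37 (1.29 to 1.45), 1.34 (1.27 to 1.40) and 1.37 (1.22 to 1.54). Dsp was at 1.19 (1.18 to 1.21).

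Dsg4, the hair shaft cadherin, was at 0.984 (0.933 to 1.04) and Dsg2 at 0.903 (0.802 to 1.01), with intervals that include 1. Dsc3 stood at 0.951 (0.910 to 0.995), an interval that ends just below 1. Directions this small move with the scaling of the libraries. Over 6 scalings, the values as deposited included, Dsg3, Dsc1, Dsc2 and Dsp were above 0 in all and Dsg2, Dsg4 and Dsc3 below 0 in all. Jup ranged from -0.13 to 0.12, Pkp1 from -0.14 to 0.11 and Pkp3 from -0.01 to 0.24, so no direction is given for them. None is given for Dsg4 and Dsg2 either, since their intervals include 1 and Dsg4 came as near 0 as -0.004. Per Krt5 and Krt14 each of the 10 was lower in OAD than in YAD, with ratios from 0.582 for Dsg2 to 0.882 for Dsg3 and a median of 0.721. Krt14 itself read 453 FPKM in OAD and 222 in YAD, and Krt5 read 618 and 469. Their sum was 1.55 times higher in OAD, so a gene with an unchanged level also falls below 1 on this scale.

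The fold of anagen over telogen was larger in old than in young dWAT for each of the 10 genes by plain ratio. The share of all genes with a larger fold in old dWAT was not counted. The old fold was 5.42 times the young fold for Dsg3, 3.23 times for Dsc1, 2.67 times for Dsp, 2.60 times for Dsg4, 2.53 times for Dsc3 and Pkp1, and 2.18 times for Dsc2. It was 1.61 times for Pkp3, 1.56 times for Dsg2 and 1.41 times for Jup. On the log2(FPKM + 1) scale the old minus the young difference was from 0.38 to 1.22 in 9 genes and -0.05 in Dsg2, whose telogen values lie far below the added 1. These folds follow from the same 4 values as the age comparisons, and with 1 library per group the difference between ages was not tested.

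Related genes fixed as lists give the setting. Of 9 other genes of desmosomes and of the junctions of cornified layers, 6 were higher in anagen past the threshold and 0 lower, at both ages, with medians of 3.71 in young and 4.35 in old dWAT. Perp, a membrane protein that desmosomes need in stratified epithelia, read 32.3 FPKM in OTD and 53.3 in YTD, and 987 in OAD and 885 in YAD. Evpl, envoplakin, a plakin like Dsp, read 0.598, 1.26, 85.6 and 55.1 FPKM in that order. Cdsn, corneodesmosin, which is added to desmosomes as cells cornify and which the inner root sheath also makes, read 3.85, 5.52, 188 and 112 FPKM. As deposited, all 3 had lower values in OTD than in YTD and higher values in OAD than in YAD, none of these past the threshold.

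The lists of other cell junctions, which also hold genes of endothelium, were mixed. Of 14 adherens junction genes, 10 were higher and 1 lower in anagen in young dWAT, and 9 higher and 2 lower in old dWAT, with medians of 1.60 and 1.52. Cdh1, E-cadherin, read 2.01 FPKM in OTD and 3.06 in YTD, and 68.5 in OAD and 60.7 in YAD, and its log2 difference of 3.92 in young dWAT is of the size of those of the desmosomal cadherins. Nectin4 and the hair follicle cadherin Cdh3 had differences of 4.34 and 3.89, whereas Cdh5, the cadherin of endothelium, was lower in anagen at -1.69. Of 14 tight junction genes 10 were higher and 1 lower in young dWAT, with a median of 1.89, and 9 and 1 in old dWAT, with a median of 1.92. The lower gene was Cldn5 at both ages, also one of the blood endothelium markers, at -1.93 in young and -2.13 in old dWAT. The 3 with the largest differences, Cldn4, Cldn8 and Cldn1, were at 4.45, 3.81 and 3.50 in young dWAT.

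Hemidesmosomes, which fix basal cells to the basement membrane rather than to each other, had 1 of 6 genes higher and 3 lower in young dWAT, with a median of -0.65, and 1 higher and 1 lower in old dWAT, with a median of -0.15. The gene that was higher is Col17a1, which read 0.583 FPKM in OTD and 0.858 in YTD, and 11.2 in OAD and 10.7 in YAD. Plec and Dst, plakins of the same protein family as Dsp, went against it in young dWAT, at -1.43 and -1.23. Both are also made in muscle, and the muscle genes had a median of -3.05 in the same comparison, whose part in these values was not tested. The Dsp level was thus higher in anagen while the levels of these 2 other plakins were lower in young dWAT. Cd151 was lower at both ages, at -1.10 in young and -1.11 in old dWAT. Markers of blood endothelium and Schwann cells had medians of -1.53 and -1.54 in young dWAT, and their part in this list was not tested.

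**Figure D5:**
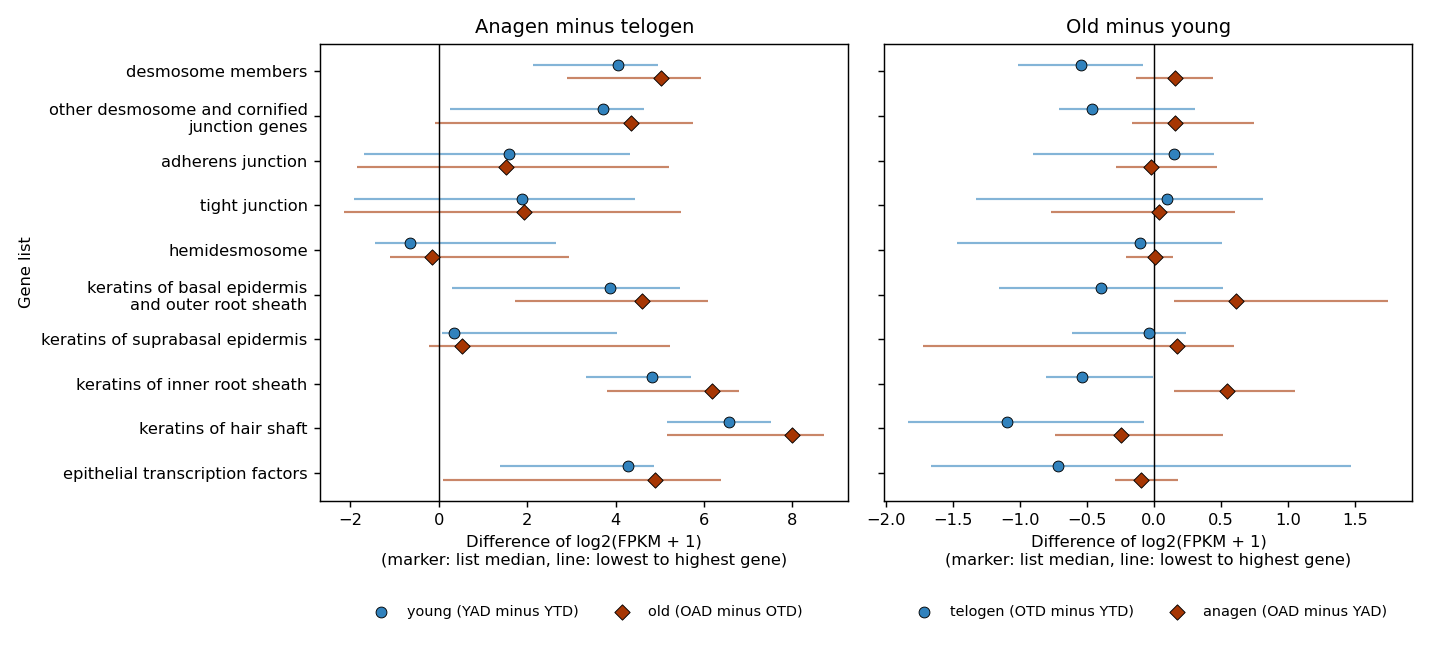
Median (marker) and lowest to highest gene (line) of the difference of log2(FPKM + 1) for the desmosome genes and 9 related lists, anagen minus telogen (left) and old minus young (right). The desmosome genes, at 4.06 and 5.03 in the left panel, lie between the hair shaft keratins on the high side and the hemidesmosome genes, whose medians lie below 0.

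The keratins of epidermis and HF were set beside the junctions by layer. The 8 keratins of basal epidermis and outer root sheath had 7 higher and 0 lower in young dWAT, with a median of 3.86, and 8 higher in old dWAT, with a median of 4.60. Krt75, Krt17 and Krt15 stood highest, with differences of 5.46, 4.35 and 4.30 in young dWAT. For the inner root sheath keratins, 8 of 8 were higher at both ages, with medians of 4.83 and 6.18, led by Krt28, Krt72 and Krt73. The hair shaft keratins had 12 of 12 higher, with medians of 6.57 and 7.99, and Krt86 read 5.88 FPKM in YTD and 1260.2 in YAD. Of 6 keratins of the suprabasal epidermis 2 were higher in young and 1 in old dWAT. They were Krt80 at both ages, at 4.03 and 5.24, and Krt2, at 1.99, in young dWAT. Among 14 transcription factors of the epidermis and HF, 14 were higher in young and 13 in old dWAT, with medians of 4.29 and 4.90, and Dlx3, Msx2 and Hoxc13, which act in the hair matrix, had the largest differences in young dWAT at 4.88, 4.83 and 4.70.

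Finally, the genes with the profile most like each of 4 desmosome genes were listed by Euclidean distance between centred log2(FPKM + 1) values over the 4 libraries, among 10461 genes that reached 5 FPKM in a library. Nearest to Dsg4 were Lgals7, Esrp1, Calml3, Tgm1 and Tgm3, at distances of 0.09 to 0.23. Lgals7 read 43.5 FPKM in OTD and 58.6 in YTD, and 1581 in OAD and 1567 in YAD. For Dsc3 they were Kdf1, Vdr, Large2, Golga7b and Crybg2, at 0.17 to 0.24, and Vdr, the vitamin D receptor, read 0.860, 2.03, 40.6 and 42.5 FPKM. For Dsg2 they were Gpsm2, Corin, Srd5a1, Efnb1 and Kremen2, at 0.07 to 0.09, and Corin, a protease of the dermal papilla, read 0.0924, 0.151, 6.75 and 7.58 FPKM. For Jup they were Tacc3, Lss, Wnt11, Ephx3 and Col17a1, at 0.04 to 0.12. The added 1 shrinks changes of genes with low telogen values, so a gene at a small distance need not have a like fold. Gpsm2, the nearest to Dsg2, read 2.35 FPKM in OTD and 2.39 in YTD, and 23.2 in OAD and 26.8 in YAD. Dsg2 read 0.0885, 0.153, 7.18 and 7.96 FPKM in that order. With 4 values per gene these distances are a description of single libraries.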

How the data were processed

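RNA of microdissected dWAT was sequenced with OTD, YTD, OAD and YAD giving 1 library each. The authors deposited FPKM for 22913 genes, with gene positions on GRCm38 and lengths that equal coding lengths for all 10 desmosome genes. Per the submitters' processing notes bcl2fastq and TopHat2 were used; the quantifier, its annotation and any scaling between libraries are not given in the sources used here. Summed FPKM differ between libraries, and a few abundant genes can shift all others.

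Of 22166 Ensembl identifiers 21750 were matched to a symbol. FPKM were used as deposited. A change is a difference of log2(FPKM + 1), past the threshold at 1 in size, among genes that have a value in either of the compared libraries. With 1 library per group there was no test. Depth was estimated from FPKM times length of features of 2000 to 4000 bases, whose lowest values gather at 1 fragment. Counting intervals of ratios are exact (Clopper-Pearson, 95%) on these estimated fragments. All desmosome values were above the floor of 3 fragments.

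The members and lists were chosen with earlier results of these data known. Named were all members, the 3 genes of each related list with the largest difference between YAD and YTD that reach 1 FPKM in a library, Krt5 and Krt14, and the 5 genes nearest to Dsg4, Dsc3, Dsg2 and Jup. Cdh2, Ttr, Pkp2, Pkp4, the Dsg1 copies, Cdh5, Cldn5, Cd151, Krt1, Klf4 and Lef1 were named in addition, after their values were seen. The alternatives were 5 scalings (median of ratios over 11181 genes, TPM, and rescaling without mitochondrially encoded genes, without these and muscle genes, or without hair shaft keratin and keratin-associated protein genes), pseudocounts of 0.1 and 0.01, a filter at 1 FPKM, thresholds of 1.5 and 0.5, and levels per Krt5 and Krt14. Krt85 was not analysed here. Of the 10 related lists 1 is not reported here. The steps were tested on simulated libraries. Promoters came from RefSeq (GRCm38.p6), gene positions from GENCODE. Python 3.11.15, numpy 2.4.6, pandas 2.3.3, scipy 1.17.1 and matplotlib 3.10.9 were used.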

Additional observations from a re-analysis of the deposited data

Results flagged for a closer look

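In 7 of the 10 desmosome genes the old library had the lower value in telogen and the higher value in anagen. Over all genes 54.1% were lower in OTD in telogen and 50% higher in OAD in anagen, and the share with both was not counted. With 1 library per group, the difference between the phases was not tested. The old minus young differences of log2(FPKM + 1), telogen first and anagen second, were -0.67 and 0.41 for Dsg3, -0.80 and 0.41 for Dsc1, and -0.19 and 0.44 for Dsc2. Dsp, the keratin linker, had -0.96 and 0.26. For Jup they were -0.38 and 0.10, for Pkp1 -0.97 and 0.09, and for Pkp3 -0.42 and 0.22. The anagen values of Jup, Pkp1 and Pkp3 change sign with the scaling of the libraries, and the telogen interval of Dsc2 includes no difference. Per Krt5 and Krt14 in the same library, all of the 10 genes were lower in OAD than in YAD. The sum of that keratin pair was itself 1.55 times higher in OAD, which lowers any gene with an unchanged level on this scale.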

How the results depend on the processing

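Anagen minus telogen stayed above 0 for all 10 genes at both ages under the 5 other scalings. The pseudocounts, the filter and the thresholds cannot turn the sign of a difference, so they do not bear on it. Relative to Krt5 and Krt14, the count of genes higher past the threshold was 6 in young dWAT, 1 gene was lower past it in old dWAT, the medians were 1.40 in young dWAT and 1.39 in old dWAT, and the sign turned for Dsg3 in young dWAT (-0.36) and for Jup in young (-0.76) and old dWAT (-1.46). On this scale the anagen age median was -0.47. The young median of 4.06 was 4.83 with TPM, 4.99 without hair keratin genes, 4.70 with a pseudocount of 0.1 and 4.72 with 0.01, and the old median of 5.03 was 5.78 and 5.90 with these pseudocounts. With TPM and without hair keratin genes the median of all genes was 0.45 and 0.57 in young dWAT, against 0.02 as deposited, and 0.32 and 0.45 in old dWAT, against 0.01. In the anagen age comparison the median of all genes was -0.16 with TPM, -0.15 without hair keratin genes and -0.10 without mitochondrially encoded genes, and between the phases in old dWAT it was -0.11 without mitochondrially encoded and muscle genes. Under TPM and without hair keratin genes, 82.2% and 86.2% of all genes past the threshold in young dWAT were higher in anagen, against 49.1% as deposited. In old dWAT they were 76.6% and 82.6% against 50.8%, and leaving out mitochondrially encoded and muscle genes gave 38.1%. Of the genes past the threshold between the ages in telogen 46.3% were higher in OTD, and 72.5% without mitochondrially encoded genes and 64.2% without these and muscle genes. In anagen 61.5% were higher in OAD, and 37.3% with TPM, 36.3% without hair keratin genes, 45.3% without mitochondrially encoded genes and 45.6% without these and muscle genes. In telogen, the count of 1 gene lower in OTD was 0 under each of the 5 scalings and at a threshold of 1.5, 6 with either pseudocount, and 5 at a threshold of 0.5. The telogen median of -0.55 was -1.20 with a pseudocount of 0.01. Over all genes, the 333 lower in OTD (1.93%) were 1063 (6.17%) and 1645 (9.55%) with pseudocounts of 0.1 and 0.01. They were 71 (0.412%) at a threshold of 1.5 and 2142 (12.4%) at 0.5. The causes were not tested. No paired analysis was possible because the labels carry no replicate numbers and each group is 1 library, and for the same reason no replicate could be left out. Telogen values of Dsg2, Dsg3, Dsg4 and Dsc2 rest on an estimated 6 to 59 fragments, which limits their ratios most.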
